A study of Mus musculus with 43 samples.

Results

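Lepr, Leprot and Socs3 are 3 genes of leptin signalling, taken here as the rows of the CPM table whose Ensembl identifiers map to those symbols: 3 of the 10127 genes in the table. Their levels were followed in 4 nuclei of the hypothalamus, namely the arcuate (ARC), dorsomedial (DMH), ventromedial (VMH) and paraventricular (PVN) nuclei, of adult male C57/BL6 mice that had been fed ad libitum or had gone without food for 24 hours. All mice, fed and fasted, carried the congenital deletion B6(Cg)-Snord116tm1.1Uta/J on the paternal allele, a model of Prader-Willi syndrome that lacks the Snord116 small nucleolar RNAs. Libraries of wild-type mice were not analysed here, and each comparison lies within the deletion genotype. Each nucleus was cut from frozen brain sections by laser, and its RNA was amplified before sequencing. The 41 libraries came from 12 mice: 5 fed and 4 fasted libraries from ARC, 6 fed and 5 fasted from DMH, 5 fed and 6 fasted from VMH, and 5 fed and 5 fasted from PVN. Fed and fasted libraries were always from different mice, while the nuclei of one mouse share that mouse. Libraries carry the nucleus and the number of the mouse in their names, such as ARC-86.

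Leptin is released by fat tissue in proportion to fat stores and falls during a fast. Its receptor, Lepr, sits on neurons of the ARC and neighbouring nuclei, where it signals through the kinase JAK2 and the transcription factor STAT3 to lower food intake. Leprot, also called endospanin-1, is a small membrane protein of endosomes that limits how much receptor reaches the cell surface. Socs3 is switched on by STAT3 and binds the receptor and JAK2 to damp the signal, so it acts as a feedback inhibitor. The gene of Leprot lies ahead of Lepr on the same strand and has been described as sharing its promoter, which raises the question whether the level of Leprot follows that of Lepr when food is withdrawn.

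In the GENCODE M21 annotation of GRCm38, Lepr (ENSMUSG00000057722) spans chr4:101717404-101815352 on the plus strand, with 7049 exon bases and 7 transcripts, of which 4 are protein-coding. Leprot (ENSMUSG00000035212) spans chr4:101647718-101659364 on the same strand, with 1898 exon bases and 2 transcripts. The starts of these 2 genes lie 69.686 kb apart and the genes themselves are separated by 58.039 kb. They share 0 exons, 0 of the annotated Lepr transcripts begin within Leprot, and 0 genes are annotated between them, so a promoter common to both is not shown by this annotation. Socs3 (ENSMUSG00000053113) lies on another chromosome, at chr11:117966079-117970047 on the minus strand, with 2891 exon bases. None of the 3 genes overlaps another annotated gene. Values are per gene, so the long, signalling form of the receptor cannot be told apart from its short forms.

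The sequences before the start sites are printed because the question of a shared promoter turns on them, and because STAT3 acts on Socs3 through its promoter. They are the 250 bases before each start in RefSeq on GRCm38.p6, with the first of the 2 Lepr starts, and a match to the STAT motif TTCNNNGAA is in capitals. The Lepr sequence is chr4:101717157-101717406 on the plus strand, the Leprot sequence chr4:101647533-101647782 on the plus strand, and the Socs3 sequence chr11:117969367-117969616 on the minus strand. The RefSeq starts differ from those of GENCODE. The Socs3 sequence lies within the GENCODE span of Socs3, and the Leprot sequence runs past the GENCODE start at 101647718.
Lepr: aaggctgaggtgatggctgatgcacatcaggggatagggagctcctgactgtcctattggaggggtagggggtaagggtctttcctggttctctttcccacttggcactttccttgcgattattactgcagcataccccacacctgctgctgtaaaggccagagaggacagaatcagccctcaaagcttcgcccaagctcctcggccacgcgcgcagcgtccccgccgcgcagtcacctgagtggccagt
Leprot: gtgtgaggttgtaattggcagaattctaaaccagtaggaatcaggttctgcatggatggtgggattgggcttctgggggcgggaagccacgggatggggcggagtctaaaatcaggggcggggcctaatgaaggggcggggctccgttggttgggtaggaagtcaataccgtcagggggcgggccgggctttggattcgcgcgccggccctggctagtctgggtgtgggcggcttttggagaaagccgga
Socs3: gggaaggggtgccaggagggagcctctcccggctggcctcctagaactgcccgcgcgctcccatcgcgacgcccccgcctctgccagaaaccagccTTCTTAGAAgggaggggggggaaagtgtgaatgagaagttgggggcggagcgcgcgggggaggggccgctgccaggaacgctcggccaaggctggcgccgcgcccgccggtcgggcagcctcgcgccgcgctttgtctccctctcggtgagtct

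The Lepr and Leprot starts thus have different sequences ahead of them, with 10 and 15 CpG dinucleotides in the 250 bases and 58.4% and 60.8% G or C. The Socs3 sequence is richer, with 26 CpG dinucleotides and 71.6% G or C. Each start was searched in a window of 300 bases that adds 50 bases after the start, on both strands. TTCNNNGAA was found 1 time, in Socs3, where it reads TTCTTAGAA and begins 154 bases before the RefSeq start. It was not found in the Leprot window or in either Lepr window, the other of which is chr4:101717656-101717955. The forkhead motif GTAAACA, the letters bound by Foxo factors, was in 0 of the 4 windows. Of 32851 RefSeq promoter windows of this length, 8.3% held the STAT motif and 3.65% the forkhead motif. These matches describe letters only, and no binding was measured here.

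The deposited CPM values of the 3 genes correspond to whole reads at depths of 1.94 to 8.23 M reads (median 4.10 M), which were estimated from the smallest step between values. Lepr rested on 14 to 422 reads per library and Leprot on 7 to 283. Socs3 rested on 0 to 42 reads with a median of 5, and 7 of its 41 libraries were at 0, where a count of 0 allows up to 0.509 to 0.919 CPM. The RNA was amplified and no molecular identifiers were used, so these limits cover counting error only. The nucleus labels matched the measured markers: the medians of Npy were 269 CPM in fed and 684 CPM in fasted ARC against 1.51 to 4.18 CPM in the groups of the other nuclei, and Fezf1, Avp with Crh, and Npvf had their highest levels in VMH, PVN and DMH. One fed DMH library, DMH-92, held 33.4 CPM of Npy where the other DMH libraries held 0.831 to 6.12 CPM.

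Lepr was the member whose level depended most clearly on the nucleus. In fed mice it was at 23.9 ± 7.30 CPM (SD, n = 5) in ARC, 24.8 ± 14.0 (n = 6) in DMH, 18.3 ± 7.83 (n = 5) in VMH and 5.71 ± 1.56 (n = 5) in PVN. The 5 fed ARC libraries held 20.7, 14.2, 31.9, 22.2 and 30.3 CPM (ARC-111, ARC-125, ARC-127, ARC-308 and ARC-313), and the 5 fed PVN libraries held 4.89, 6.86, 4.29, 4.68 and 7.85 CPM (PVN-111, PVN-125, PVN-127, PVN-308 and PVN-313). All fed PVN libraries thus lay below all fed ARC libraries. In fed DMH the lowest, median and highest libraries were at 8.98, 20.6 and 45.0 CPM, and the 5 fed VMH libraries held 27.9, 24.0, 8.75, 12.9 and 18.1 CPM. The fed DMH and VMH libraries overlapped the fed ARC libraries. Without food the order was led by ARC, at 70.2 ± 26.2 CPM (n = 4), with 23.1 ± 12.04 (n = 5) in DMH, 17.8 ± 10.5 (n = 6) in VMH and 8.07 ± 5.24 (n = 5) in PVN. In bulk tissue, fewer cells of a type and less RNA per cell cannot be told apart.

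The differences between nuclei were tested with limma on log2(CPM + 0.5), in 1 fit over all libraries with the mouse as a block. The level of Lepr differed between nuclei, with a Benjamini-Hochberg adjusted p of 5.31e-08 in the F-test averaged over fed and fasted mice. Such differences were common, since 43% of the 10121 genes tested passed an adjusted p under 0.1, the threshold used throughout. Averaged over both states, Lepr in ARC exceeded DMH by 0.97 ± 0.30 (SE) on the log2 scale (limma adjusted p 0.0256, a difference that 17.6% of genes showed in either direction), exceeded VMH by 1.28 ± 0.30 (adjusted p 0.00118, 30.2% of genes) and exceeded PVN by 2.60 ± 0.30 (adjusted p 1.43e-08, 16.9% of genes). DMH exceeded PVN by 1.62 ± 0.29 (adjusted p 6.71e-05, 18.5% of genes). VMH exceeded PVN as well: PVN minus VMH was -1.31 ± 0.29 (adjusted p 0.000539, 31.9% of genes). DMH and VMH are neighbours in the order that were not separated, at 0.31 with a 95% interval of -0.28 to 0.90 (adjusted p 0.539).

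Fed and fasted mice were then taken separately. In fed mice ARC minus DMH was 0.25 (95% interval -0.59 to 1.08, limma adjusted p 0.803, where 11.1% of genes passed) and ARC minus VMH 0.43 (-0.41 to 1.26, adjusted p 0.565, 19.9% of genes), so the 3 upper nuclei were not separated. DMH minus VMH was 0.18 there (-0.65 to 1.02, adjusted p 0.851, 14% of genes). Each of the 3 differed from PVN in fed mice, by 1.95 for ARC minus PVN, 1.703 for DMH minus PVN and -1.52 for PVN minus VMH (adjusted p 0.00102, 0.00567 and 0.00755, where 10.5%, 10.2% and 20% of genes passed). In fasted mice ARC stood above DMH by 1.699 ± 0.45 (adjusted p 0.0150, 7.59% of genes), above VMH by 2.14 ± 0.45 (adjusted p 0.000519, 17.9% of genes) and above PVN by 3.24 ± 0.45 (adjusted p 1.19e-06, 10.1% of genes). DMH minus VMH was 0.44 (-0.39 to 1.27, adjusted p 0.630, 11.9% of genes). DMH stood above PVN by 1.55 ± 0.41 (adjusted p 0.0142, 9.97% of genes), and PVN minus VMH was -1.10 ± 0.41 (adjusted p 0.0626, 20.5% of genes).

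**Figure D1:**
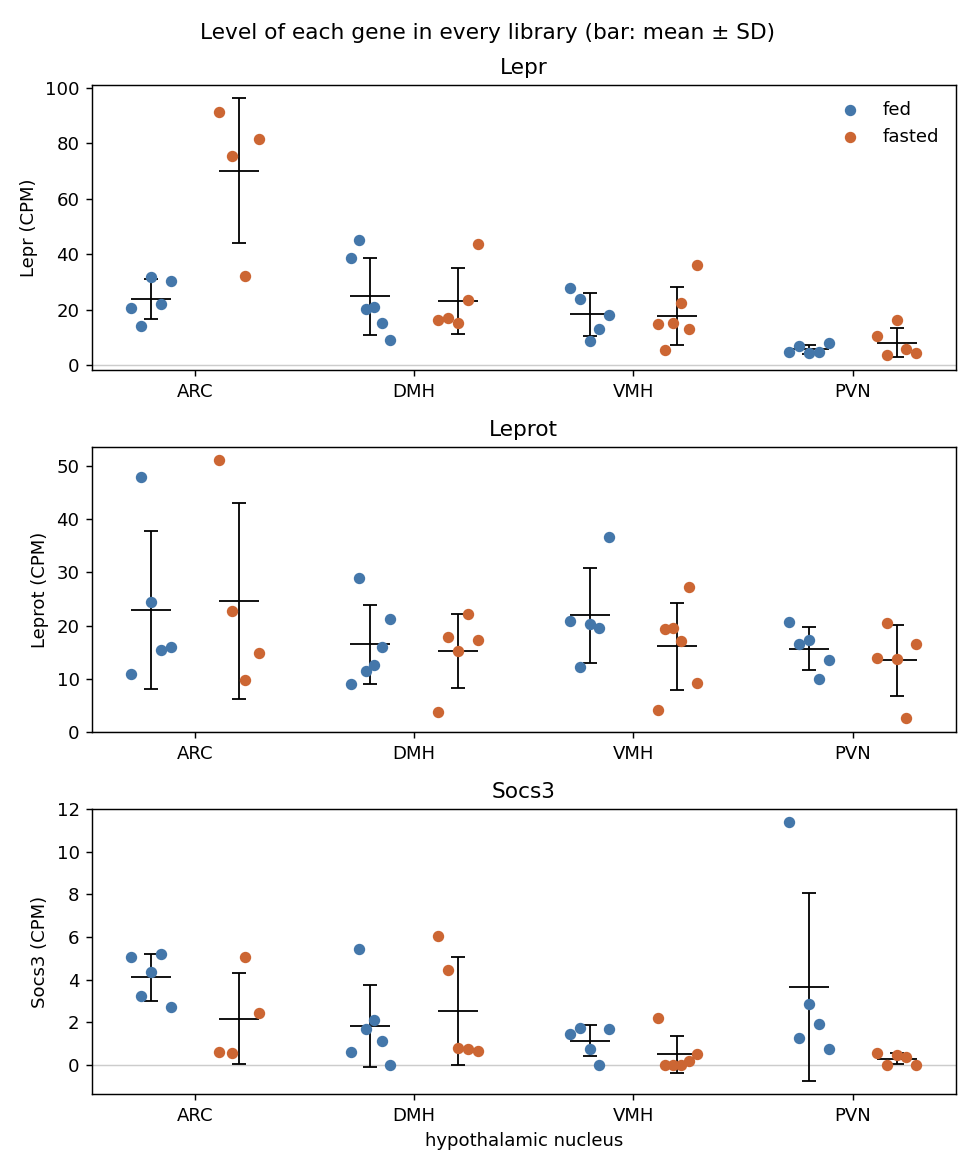
Level in CPM of Lepr, Leprot and Socs3 (top to bottom) in every library, by nucleus, with fed libraries in blue, fasted libraries in orange, and the mean ± SD of each group as a bar. The 4 fasted ARC libraries of Lepr, at 32.2 to 91.5 CPM, lie above the 5 fed ones, and the 5 fasted PVN libraries of Socs3, at 0 to 0.567 CPM, lie below the 5 fed ones.

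**Figure D2:**
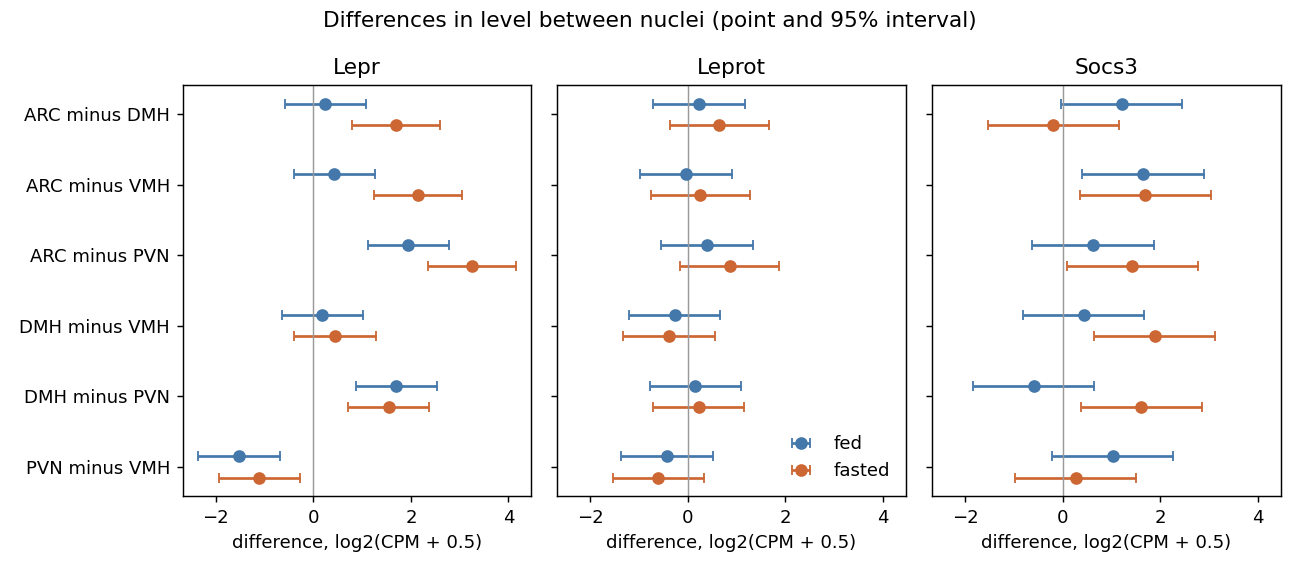
Differences in level between pairs of nuclei on the log2(CPM + 0.5) scale, with the 95% interval from limma, for fed (blue) and fasted (orange) mice. For Lepr the ARC minus DMH and ARC minus VMH intervals include 0 in fed mice and lie above 0 in fasted mice, and all 12 intervals of Leprot include 0.

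Leprot lay at like levels in the 4 nuclei, with group means of 13.5 to 24.6 CPM. In fed mice it was at 22.9 ± 14.8 CPM (SD, n = 5) in ARC, 16.5 ± 7.43 (n = 6) in DMH, 21.9 ± 8.97 (n = 5) in VMH and 15.6 ± 4.01 (n = 5) in PVN. In fasted mice it was at 24.6 ± 18.4 (n = 4), 15.2 ± 6.88 (n = 5), 16.1 ± 8.20 (n = 6) and 13.5 ± 6.61 CPM (n = 5) in the same order. The level of Leprot was not shown to differ between nuclei (limma F-test, adjusted p 0.362), and 0 of its 6 pairwise differences passed. ARC minus PVN, the widest of them, was 0.62 with a 95% interval of -0.07 to 1.31 (adjusted p 0.275), where that of Lepr was 2.60.

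Divided by the joined length of all annotated exons, Leprot was higher than Lepr. For Lepr that length joins the exons of 7 transcripts, so it may exceed the length of the forms present. The order of the 2 genes depends on it. Averaged over states Leprot reached 12.5 ± 8.12 CPM per kb (SD, n = 9) in ARC, 8.39 ± 3.61 (n = 11) in DMH, 9.87 ± 4.56 (n = 11) in VMH and 7.67 ± 2.78 (n = 10) in PVN. Lepr was at 6.31 ± 4.21, 3.41 ± 1.77, 2.56 ± 1.26 and 0.978 ± 0.546 CPM per kb. In 37 of the 41 libraries Leprot exceeded Lepr per kb, and the median ratio ran from 1.97 in ARC to 8.46 in PVN, where Lepr is scarce. Socs3 was the least abundant of the 3, at 1.12 ± 0.634 CPM per kb in ARC, 0.742 ± 0.741 in DMH, 0.268 ± 0.290 in VMH and 0.677 ± 1.19 in PVN. It lay below Lepr per kb in 38 libraries, and the other 3 were all from PVN.

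Socs3 also differed between nuclei (limma F-test, adjusted p 0.0158), with ARC at the top and VMH at the bottom. In CPM it was at 3.24 ± 1.83 (SD, n = 9) in ARC, 2.14 ± 2.14 (n = 11) in DMH, 1.96 ± 3.44 (n = 10) in PVN and 0.774 ± 0.839 (n = 11) in VMH. The PVN mean includes PVN-111 at 11.4 CPM. The medians were 3.22, 1.09, 0.641 and 0.516 CPM in the same order of nuclei. Averaged over states, ARC exceeded VMH by 1.67 ± 0.45 (limma adjusted p 0.00445, 30.2% of genes) and DMH exceeded VMH by 1.16 ± 0.43 (adjusted p 0.0579, 22.6% of genes). The other 4 pairs did not pass, and for ARC minus DMH the difference was 0.51 with a 95% interval of -0.40 to 1.43. Split by state, ARC minus VMH was 1.65 in fed and 1.697 in fasted mice (adjusted p 0.0624 and 0.0855, where 19.9% and 17.9% of genes passed). DMH minus VMH was 0.43 (-0.81 to 1.68, 14% of genes) in fed and 1.89 ± 0.61 (adjusted p 0.0440, 11.9% of genes) in fasted mice.

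The response to fasting was tested in each nucleus by limma, with batch as a covariate. In ARC, Lepr rose. The 4 fasted libraries ARC-86, ARC-311, ARC-100 and ARC-305 held 91.5, 81.7, 75.5 and 32.2 CPM, where the fed libraries held 14.2 to 31.9 CPM. The groups did not overlap, but ARC-305 lay just above ARC-127, the highest fed library. The change was 1.49 ± 0.31 (SE) on the log2 scale, a 2.81-fold rise with a 95% interval of 1.79 to 4.41, with a limma adjusted p of 0.0867. This SE is moderated by limma with the spread of other genes. From the spread of Lepr alone, with batch as a covariate, the SE was 0.447. The 95% interval was then 0.34 to 2.64 on the log2 scale. In ARC 0.176% of 9654 genes passed that threshold, 0.104% in the upward direction, and 1.12% were higher in fasted libraries without overlap. An exact permutation test of Lepr alone within batches gave a two-sided p of 0.0278, the smallest that its 36 arrangements allow, and was added after the values were seen. The rise was 2.12, 1.80 and 0.97 on the log2 scale in batches 1, 2 and 3. Batch 1 held 1 fed and 1 fasted library, and batch 2 held 2 fed and 1 fasted. As the groups did not overlap, a rise in each batch follows and is no further support. For the same reason no other arrangement gave a larger rise.

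That call is close to its threshold. Lepr passed it in 4 of 9 other settings, with adjusted p values of 0.0504 to 0.314, and in 2 of the 9 fits that left out 1 library, while the change itself stayed between 1.30 and 1.83. Leaving out ARC-305 gave 1.83 (adjusted p 0.0118) and leaving out ARC-313 kept the call at 1.67 (0.0958). Without ARC-100 the change was 1.35 (adjusted p 0.366), without ARC-311 1.34 (0.334), without ARC-86 1.30 (0.348), without ARC-111 1.30 (0.331), without ARC-125 1.32 (0.132), without ARC-127 1.61 (0.148) and without ARC-308 1.50 (0.319).

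Other levels were compared in the same libraries. Npy, the orexigenic peptide of ARC neurons that carry the receptor, was at 1226, 732, 636 and 326 CPM in ARC-86, ARC-311, ARC-100 and ARC-305, the same order as Lepr. The summed level of 5 measured endothelial markers of 9 (Cldn5, Flt1, Cdh5, Kdr and Slco1a4) was 49.0 to 79.3 CPM in fasted and 81.1 to 97.7 CPM in fed ARC, although 0 of the 5 passed the test. Cldn5 went the other way, with means of 6.07 CPM in fed and 6.47 CPM in fasted ARC. The sum of 3 measured choroid plexus markers of 5 was 31.8 to 59.3 CPM in fasted and 20.1 to 35.1 CPM in fed ARC. Those of 4 tanycyte and ependymal markers of 7, at 64.6 to 157 CPM fasted and 75.3 to 183 fed, and of 2 neuronal markers of 5, at 462 to 507 fasted and 436 to 550 fed, overlapped widely. The 2 neuronal markers went opposite ways without passing, with Tubb3 at 131.5 CPM in fed and 82.1 CPM in fasted ARC (log2 difference -0.59 ± 0.16, limma adjusted p 0.266) and Syt1 at 350.1 and 398 CPM (0.20 ± 0.12, adjusted p 0.674). Of the choroid plexus markers, Kl was at 18.7 CPM in fed and 35.4 CPM in fasted ARC, and Ttr at 2.37 and 4.56 CPM. Kcnj13 went the other way, at 6.88 and 3.74 CPM, and none of the choroid plexus markers passed. The part of these cell types in the Lepr values was not tested.

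In the other nuclei the response of Lepr did not pass and its sign varied. In DMH the fasted libraries held 16.2, 17.0, 15.01, 23.6 and 43.8 CPM (DMH-86, DMH-100, DMH-101, DMH-305 and DMH-311), inside the fed range of 8.98 to 45.0. The highest fed DMH library was DMH-111, and DMH-92, the one with Npy, came next at 38.6 CPM. The change in DMH was 0.07 ± 0.36 (limma adjusted p 0.987, where 0.0103% of genes passed), with -1.33, -0.36 and 1.42 in the 3 batches and 0.14 without DMH-92. In VMH the lowest, median and highest fasted libraries were at 5.51, 14.95 and 36.1 CPM, around the fed values of 8.75 to 27.9, and the change was -0.08 ± 0.40 (adjusted p 0.986, where 0.0208% of genes passed). The highest fasted libraries, DMH-311 and VMH-311, came from 1 mouse. In PVN the fasted libraries held 10.6, 3.72, 16.1, 5.73 and 4.24 CPM (PVN-86, PVN-100, PVN-101, PVN-305 and PVN-311), so 2 of them lay above and 2 below the fed range of 4.29 to 7.85 CPM, and the change was 0.30 ± 0.45 (adjusted p 0.886, where 0.367% of genes passed).

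Whether the response of Lepr differs between nuclei was tested directly in the fit with the mouse as a block. The F-test gave an unadjusted p of 0.0397 and a limma adjusted p of 0.853, where 0 of 10121 genes (0%) passed and 5.56% had an unadjusted p under 0.05. Relative to ARC, the change was lower by a log2 difference of -1.45 in DMH (95% interval -2.68 to -0.22), -1.29 in PVN (-2.52 to -0.07) and -1.71 in VMH (-2.94 to -0.48), with limma adjusted p values of 0.867, 0.832 and 0.949. A rise of Lepr particular to ARC was thus not established across all genes tested. Another fit over all libraries took batch as a covariate and the mouse as a random effect. Its ARC response was 1.48 ± 0.44 (limma adjusted p 0.262).

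**Figure D3:**
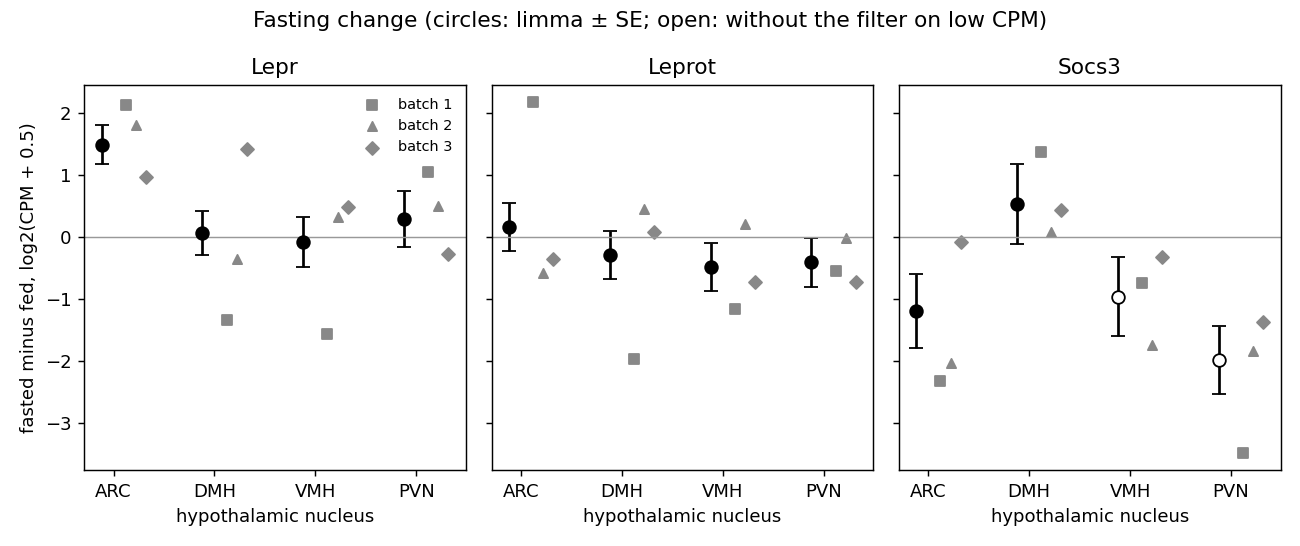
Change on fasting (fasted minus fed, log2(CPM + 0.5) scale) of each gene in each nucleus: circles are the limma change ± SE, open where the gene was tested only without the filter on low CPM, and grey symbols the difference of means in each batch. Lepr in ARC lies above 0 in all 3 batches, Socs3 in PVN, ARC and VMH lies below 0 in all 3, and Leprot lies on both sides of 0 in 3 of the 4 nuclei.

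Leprot did not pass in any nucleus. In ARC the fasted libraries held 51.1, 14.9, 22.7 and 9.87 CPM (ARC-86, ARC-311, ARC-100 and ARC-305), and the fed libraries 10.97, 47.9, 24.4, 15.3 and 16.1 CPM (ARC-111, ARC-125, ARC-127, ARC-308 and ARC-313). Each group had 1 high library, and the groups overlapped almost entirely. The change was 0.16 ± 0.39 (SE; 1.12-fold, 95% interval 0.632 to 1.97, limma adjusted p 0.937), with 2.17 in batch 1, -0.58 in batch 2 and -0.36 in batch 3. Without ARC-86, the fasted library of batch 1, it was -0.45, and likewise without ARC-111, its fed counterpart.

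In the other nuclei the values of Leprot were below 0 and within the spread. It was -0.29 ± 0.39 in DMH (limma adjusted p 0.926), -0.49 ± 0.39 in VMH (adjusted p 0.894) and -0.41 ± 0.39 in PVN (adjusted p 0.791). The lowest fasted libraries of each nucleus were DMH-86 at 3.78 CPM (10 reads), VMH-85 at 4.15 CPM (17 reads) and PVN-305 at 2.67 CPM (7 reads), each of a different mouse, and VMH-311 followed in VMH at 9.28 CPM (18 reads). Without DMH-86 the DMH change was 0.27, without VMH-85 or VMH-311 the VMH change was -0.23 or -0.24, and without PVN-305 the PVN change was 0.02. The other fasted libraries held 15.3 to 22.1 CPM in DMH and 13.7 to 20.4 CPM in PVN, close to the fed ranges of 8.99 to 29.0 and 10.1 to 20.7 CPM. In VMH they held 9.28 to 27.2 CPM, against 12.3 to 36.7 CPM in fed mice. The F-test of a differing response between nuclei gave a limma adjusted p of 0.992.

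Whether Leprot follows Lepr was asked in 2 ways. The first was the change of their log2 ratio, log2(Leprot CPM + 0.5) minus log2(Lepr CPM + 0.5), with an exact two-sided permutation test within batches. In ARC the ratio was -0.19 ± 1.09 (SD, n = 5) in fed and -1.65 ± 0.65 (n = 4) in fasted libraries. The batch-adjusted change was -1.33 with a 95% interval of -2.94 to 0.28, an exact permutation p of 0.111 and a p of 0.444 after Benjamini-Hochberg adjustment over the 4 nuclei. Without batch it was -1.46 (exact p 0.0476, adjusted 0.190). For DMH, PVN and VMH the differences were -0.36, -0.70 and -0.40, with exact permutation p values of 0.463, 0.361 and 0.648. Leaving out 1 library moved the difference between -1.75 (without ARC-86 or ARC-111) and -0.87 (without ARC-100) in ARC, between -0.53 and -0.043 (without DMH-311) in DMH, between -1.18 (without PVN-311) and -0.31 (without PVN-305) in PVN, and between -0.80 (without VMH-86) and 0.14 (without VMH-311) in VMH. All 4 were below 0 with all libraries and none passed. The smallest p that the arrangements within batches allow was 0.0278 in ARC and PVN, so a change in ARC or PVN alone could not pass the adjusted threshold of 0.1.

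The second was the correlation of the 2 genes across libraries of one nucleus, each from a different mouse. In ARC each fasted library lay above each fed one in Lepr, ARC-305 only just, with fewer than 6 libraries in each state. The relation was therefore read there only as deviations from the means of state and batch. These gave Pearson's r of 0.22 and Spearman's rho of 0.32 (n = 9, exact permutation p 0.559 and 0.410). In the other nuclei Pearson's r of log2(CPM + 0.5) was 0.13 in DMH (n = 11, rho 0.18, permutation p 0.706 and 0.594), -0.09 in PVN (n = 10, rho -0.49, permutation p 0.810 and 0.154) and -0.23 in VMH (n = 11, rho -0.24, permutation p 0.502 and 0.486). Benjamini-Hochberg adjustment over the 4 nuclei used the correlations over all libraries, that of ARC included. The lowest adjusted p values were then 0.810 for r and 0.616 for rho. For deviations from the means of state and batch in all 4 nuclei they were 0.426 and 0.410. Leaving out the 2 libraries farthest from the median of Lepr gave r of 0.11, -0.27 and -0.04 in DMH, PVN and VMH, and deviations from the means of state and batch gave 0.41, -0.21 and -0.41. None of these correlations passed.

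**Figure D4:**
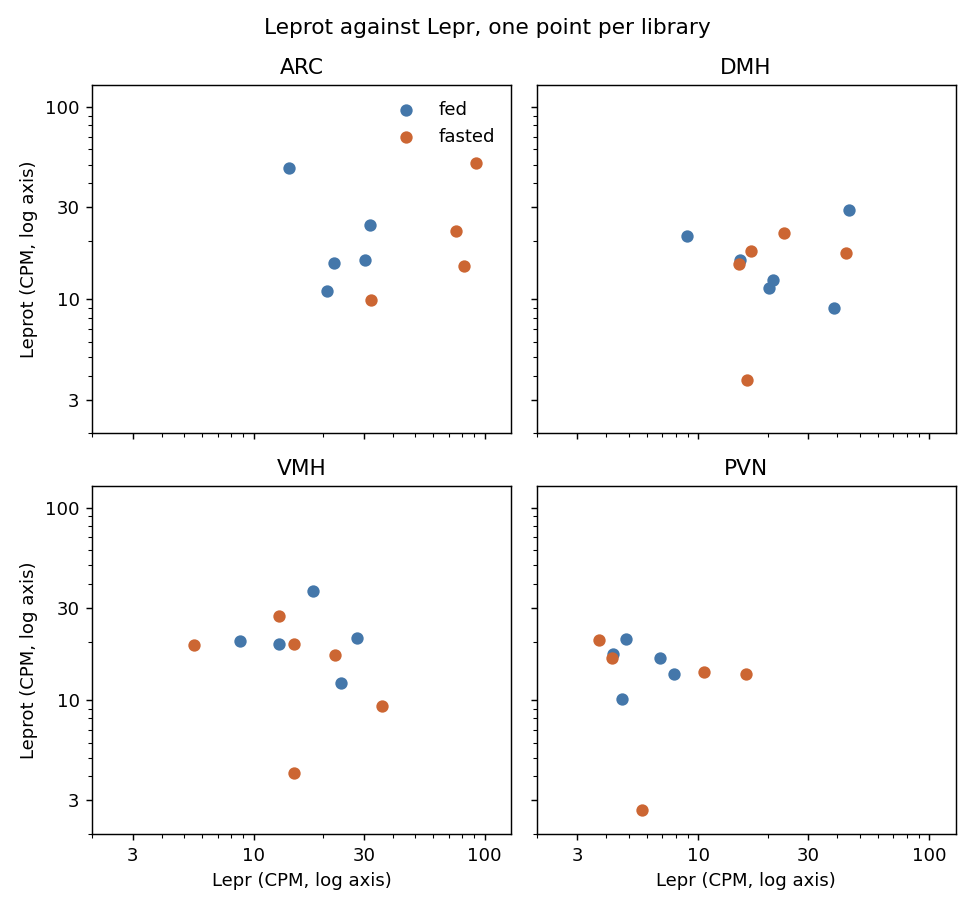
Leprot against Lepr in CPM on log axes, 1 point per library, in a panel per nucleus, with fed libraries in blue and fasted libraries in orange. In ARC the fasted points lie to the right of the fed ones along the Lepr axis, at 32.2 to 91.5 against 14.2 to 31.9 CPM, while along the Leprot axis both groups run from about the same low to the same high values, 9.87 to 51.1 and 10.97 to 47.9 CPM.

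Socs3 was lower in fasted than in fed mice in 3 nuclei by its mean, and the separation was complete in PVN. The fed PVN libraries held 11.4, 1.27, 2.86, 1.93 and 0.714 CPM (PVN-111, PVN-125, PVN-127, PVN-308 and PVN-313), from 42, 5, 12, 14 and 3 reads. The fasted PVN libraries held 0.567, 0, 0.435, 0.382 and 0 CPM (PVN-86, PVN-100, PVN-101, PVN-305 and PVN-311), from 3, 0, 2, 1 and 0 reads. Each fasted library lay below each fed one, although the lowest fed and highest fasted library rested on 3 reads each, and the 2 libraries at 0 allow up to 0.796 and 0.605 CPM. Among the 9529 genes tested in PVN, 0.609% were lower in fasted libraries without overlap.

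With only 4 PVN libraries at 1 CPM or more, where 5 were required, Socs3 was not among the genes tested in PVN. Without that filter the change was -1.98 ± 0.55 (SE; unadjusted p 0.00208, limma adjusted p 0.235), while 9.97% of the genes tested in PVN had an unadjusted p under 0.05. An exact permutation test of Socs3 alone within batches gave a two-sided p of 0.0278, the smallest its 72 arrangements allow, and was chosen after the values were seen. The difference was -3.48, -1.83 and -1.37 in batches 1, 2 and 3, in batch 1 from PVN-86 and PVN-111 alone. As the groups did not overlap, the sign in each batch and the smallest permutation p both follow. Neither is further support. Without PVN-111, whose 11.4 CPM stood apart from the 0.714 to 2.86 CPM of the other fed libraries, the change was -1.60 (limma adjusted p 0.424 without the filter). A change of Socs3 in PVN thus did not pass over all genes. In the same libraries, 3 meningeal markers of 6 were measured. Their sum was 5.87 to 52.4 CPM fasted (median 12.2, highest in PVN-86) and 4.07 to 7.37 CPM fed (median 4.41). Among them Lyve1 passed the threshold (limma adjusted p 0.0637), with means of 0.592 CPM in fed and 10.5 CPM in fasted PVN. Fezf1, the marker of VMH, was at 3.23 to 21.9 CPM fasted and 2.89 to 7.37 fed (log2 difference 1.00 ± 0.45, limma adjusted p 0.485). The sum of 3 measured choroid plexus markers of 5 was 15.003 to 34.03 CPM fasted and 5.43 to 21.4 fed, and that of 5 microglial markers of 8 was 55.4 to 90.0 fasted and 56.9 to 87.7 fed. Of the choroid plexus markers, Kl was at 9.29 CPM in fed and 18.5 CPM in fasted PVN, without passing. Kcnj13 went the other way, at 3.84 and 2.84 CPM, again without passing. The part of these cell types, or of VMH tissue, in the Socs3 values was not tested.

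In ARC the fed libraries of Socs3 held 5.06, 3.22, 4.33, 5.18 and 2.70 CPM (ARC-111, ARC-125, ARC-127, ARC-308 and ARC-313). The fasted libraries held 0.608, 2.41, 0.537 and 5.08 CPM (ARC-86, ARC-311, ARC-100 and ARC-305). ARC-305 alone lay within the fed range, and the other 3 fasted libraries were below it. ARC-305 was also the fasted library with the least Lepr and the least Npy, while Socs3 of the same mouse was at 0.753 CPM in DMH, 0.382 CPM in PVN and, at 1 read, 0.184 CPM in VMH. The change was -1.20 ± 0.60 (SE; 0.435-fold, 95% interval 0.183 to 1.04, limma adjusted p 0.615), with -2.33, -2.03 and -0.08 in the batches.

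In VMH Socs3 was near the limit of detection. The fed libraries held 1.45, 1.73, 0.750, 0 and 1.69 CPM, and the fasted libraries had a lowest, median and highest value of 0, 0.0920 and 2.197 CPM, with 3 of 6 at 0. The groups overlapped through VMH-85, the highest fasted library, and VMH-308, a fed library at 0. Without the filter, which Socs3 did not pass here either, the change was -0.96 (limma adjusted p 0.836), at -0.75, -1.74 and -0.33 in the batches. In DMH the sign was opposite: fasted libraries held 6.04, 4.45, 0.790, 0.753 and 0.648 CPM (DMH-86, DMH-100, DMH-101, DMH-305 and DMH-311), and fed libraries ran from 0 through a median of 1.38 to 5.45 CPM. Among the fasted libraries 2 were high and 3 low, and the change was 0.53 ± 0.64 (adjusted p 0.916). Leaving out 1 library moved it between 0.23 (without DMH-92) and 0.87 (without DMH-101), and a pseudocount of 0.1 gave 0.88. The F-test of a differing response of Socs3 between nuclei gave an unadjusted p of 0.0974 and a limma adjusted p of 0.882, so the opposite signs were not shown to differ.

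Other genes of the pathway were taken from 6 lists of 69 genes, of which 32 were measured here. Jak2 and Stat3 were not analysed here, and what could be followed of the proteins at the receptor were Sh2b1, an adaptor of JAK2, Ptpn11, a phosphatase that links the receptor to the MAPK branch, and Grb2, its adaptor. None of these 3 passed in any nucleus. In ARC they were at 0.45 ± 0.39, 0.02 ± 0.14 and 0.14 ± 0.23 (log2 change ± SE, limma adjusted p 0.770, 0.981 and 0.895). In DMH the values were 0.81 ± 0.37, -0.04 ± 0.15 and -0.13 ± 0.19 (adjusted p 0.752, 0.980 and 0.940). In PVN and VMH they lay between -0.14 and 0.21, where the adjusted p values were 0.830 to 0.980.

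Of the SOCS family, 5 of 7 other members were measured and 0 of 5 passed in each nucleus. Cish, a STAT5-induced inhibitor of the same family, had the smallest p in ARC, where it was at 14.1 CPM in fed and 4.23 CPM in fasted mice, a log2 difference of -1.86 ± 0.67 (limma adjusted p 0.477). Socs7 and Socs4 followed there at 0.21 ± 0.20 and 0.27 ± 0.29 (adjusted p 0.791 and 0.837). In DMH Socs5, Socs6 and Socs4 were at 0.37 ± 0.18, -0.46 ± 0.27 and -0.38 ± 0.25 (adjusted p 0.754 to 0.840). In PVN Socs4, Socs6 and Cish were at -0.59 ± 0.28, 0.50 ± 0.24 and -0.93 ± 0.73 (adjusted p 0.495 to 0.731). In VMH Socs4, Socs7 and Socs5 were at 0.27 ± 0.28, 0.10 ± 0.18 and -0.05 ± 0.16 (adjusted p 0.924 to 0.981). The medians over the 5 genes in ARC, DMH, PVN and VMH were 0.06, -0.38, -0.21 and 0.05, beside 0.02, 0.01, 0.01 and -5.12e-05 over all genes tested.

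Of the PI3K and MAPK branch, 12 of 18 genes were measured and 1 rose, in ARC, where 0.176% of genes passed. Foxo1, the transcription factor that PI3K signalling keeps out of the nucleus and that raises Npy and Agrp, went from 101.4 to 174 CPM, a log2 rise of 0.76 ± 0.16 (limma adjusted p 0.0867) without overlap, where 1.12% of genes were higher in fasted ARC without overlap. The change of Foxo1 passed in 4 of 9 other settings and in 2 of 9 fits that left out 1 library, with values of 0.60 to 0.88 and adjusted p values of 0.0504 to 0.348. Pik3r2 and Mapk3 followed at 0.96 ± 0.39 and 0.22 ± 0.16 (adjusted p 0.554 and 0.713). In DMH Irs4, Irs1 and Irs2, insulin receptor substrates, were at -0.28 ± 0.11, -0.50 ± 0.28 and 0.32 ± 0.23 (adjusted p 0.695 to 0.867). In PVN Irs4 and Irs2 were at -0.26 ± 0.11 and 0.53 ± 0.27 (adjusted p 0.438 and 0.524). In VMH Irs4, Pik3cb and Foxo3 were at -0.35 ± 0.14, -0.44 ± 0.21 and 0.29 ± 0.18 (adjusted p 0.619 to 0.811). Irs4 was below 0 in all 4 nuclei, at -0.12 ± 0.09 in ARC (adjusted p 0.718), without passing in any.

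Among the receptors of the same cytokine family, 3 of 9 were measured. Lifr, the receptor of leukaemia inhibitory factor, rose in fasted PVN from 50.3 to 86.2 CPM, by 0.75 ± 0.16 on the log2 scale (limma adjusted p 0.0637) and without overlap, where 0.703% of genes were higher in fasted PVN without overlap. The change of Lifr passed in 6 of 9 other settings and in 2 of 10 fits that left out 1 library, with values of 0.69 to 0.85 and adjusted p values of 0.0278 to 0.593. It was at 0.10 ± 0.24 in ARC, 0.28 ± 0.21 in DMH and 0.32 ± 0.18 in VMH (adjusted p 0.935, 0.867 and 0.772). Csf3r, the receptor of granulocyte colony-stimulating factor, was above 0 in ARC, VMH and DMH, at 1.33 ± 0.50, 0.78 ± 0.43 and 0.15 ± 0.48, and below 0 in PVN, at -1.03 ± 0.58 (adjusted p 0.519, 0.772, 0.980 and 0.592). Il11ra1 was below 0 in all 4 nuclei, at -0.78 ± 0.44, -0.54 ± 0.51, -0.46 ± 0.39 and -0.43 ± 0.44 in ARC, DMH, PVN and VMH (adjusted p 0.666 to 0.923).

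Of 12 genes known as targets of leptin, 4 were measured. Npy rose in ARC by 1.35 ± 0.16 (limma adjusted p 0.00114), the list's only call. It passed in each of 9 fits that left out 1 library and in 6 of 9 other settings, and did not pass with no batch covariate (1.33, adjusted p 0.314) or in the fits over all nuclei without and with the replicate block (1.32, adjusted p 0.566 and 0.565). Nhlh2 and Bdnf were at 0.59 ± 0.39 and -0.30 ± 0.72 there (adjusted p 0.695 and 0.934). In DMH Crh and Bdnf were at 1.86 ± 0.62 and 1.28 ± 0.55 (adjusted p 0.695 and 0.727), and Nhlh2 at -0.38 ± 0.48 (0.923). In PVN Bdnf, Nhlh2 and Npy were at -0.65 ± 0.30, 0.33 ± 0.24 and 0.54 ± 0.51 (adjusted p 0.495 to 0.784), and in VMH Nhlh2, Npy and Bdnf at 0.65 ± 0.70, 0.50 ± 0.56 and -0.10 ± 0.26 (adjusted p 0.927 to 0.976).

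Of 10 genes of endosomal sorting, the compartment of Leprot, 5 were measured and 0 of 5 passed in each nucleus. Their changes were, for instance, -0.07 ± 0.11 for Lrp1, 0.06 ± 0.10 for Rab7 and 0.06 ± 0.11 for Ap2b1 in ARC (limma adjusted p 0.894 to 0.905), and -0.12 ± 0.11, 0.06 ± 0.11 and -0.07 ± 0.13 for Rab7, Lrp1 and Ap2b1 in DMH (adjusted p 0.895 to 0.962). In PVN Ap2b1, Rab7 and Lrp1 were at 0.23 ± 0.11, 0.16 ± 0.09 and 0.13 ± 0.09 (adjusted p 0.503 to 0.677). Leprotl1, the close relative of Leprot, came first in VMH at -0.21 ± 0.16, followed by Vps35 and Rab7 at 0.16 ± 0.14 and 0.08 ± 0.08 (adjusted p 0.889 to 0.904). Over the 6 lists, 2 genes rose in ARC and 1 rose in PVN, 0 passed in DMH and VMH, and 0 fell in any nucleus, where 0.176%, 0.367%, 0.0103% and 0.0208% of all genes tested in ARC, PVN, DMH and VMH passed.

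The genes whose pattern over the 41 libraries was most like that of each member differed from one member to the next. By Pearson's r of log2(CPM + 0.5), among genes with a mean of at least 5 CPM, Lepr was nearest to Isl1, a transcription factor of ARC neurons, at 0.72, then to Hs6st2 (0.69), Vwa5b1 (0.69), Wdr6 (0.69) and Gpc4 (0.68). Leprot was nearest to Kctd16 at 0.62, then to Gskip (0.54), Tmem203 (0.53), Ubac1 (0.52) and Cfap70 (0.51). Socs3 was nearest to Polr1d (0.65), Drd2 (0.65), Gch1 (0.64), Aamdc (0.59) and Peg10 (0.57). Leprot was 1480th of 7638 genes in likeness to Lepr, with r of 0.17, and Socs3 1287th of 7639, with r of 0.19. As deviations from the means of group and batch, r was 0.01 between Lepr and Leprot, 0.07 between Lepr and Socs3 and -0.36 between Leprot and Socs3. These correlations are descriptions over libraries that share mice, nuclei and depth.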

How the data were processed

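RNA was sequenced from 41 laser-captured nuclei of 12 mice. Per the submitters' processing notes and the study's methods, capture and library preparation ran in 3 batches, reads were mapped to GRCm38 with TopHat2 2.0.11, and the authors left out samples that stood apart in overall profile. The authors deposited CPM per Ensembl gene, read counts scaled to the library total; the filter behind the 10127 genes is not given in the sources used here. The table has 43 columns: 2, named for ARC, fit the labels of none of the 43 samples and were set aside, and 2 PVN samples with the same mouse numbers and states have no column of their own name and were not analysed here. Low values were whole multiples of 1 step (97.7% to 98.7% per library, within 0.1 reads), which gave the depths. Because 101 genes held positive values under 0.01 CPM, no count test was run. Genes were named by GENCODE M21.

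Values were tested as log2(CPM + 0.5), which understates changes of low genes, with limma 3.58.1 in R 4.3.3 (lmFit, eBayes with trend) and Benjamini-Hochberg adjustment over all genes tested. Fasted and fed libraries were compared per nucleus with batch as covariate, for genes that reached 1 CPM in at least the number of libraries in the smaller group. Differences between nuclei were tested over all libraries with the mouse as a fixed block, since same-numbered libraries come from 1 mouse. Single-gene tests were exact permutations (scipy 1.17.1), and correlations used 100000 resamples from 10 libraries up. Alternatives were other pseudocounts (0.1, 2), no filter or a filter at 5 CPM, rescaled CPM, library weights, no batch covariate, with and without the replicate block, and leaving out each library or mouse. The scripts were tested on simulated data. Named list genes were those past adjusted p under 0.1 or, with fewer than 3 in a list, the 3 with the smallest p; 1 result under this rule is not reported here. The members and lists were chosen with earlier results of these data known. Mice are separate animals, so p-values of fasted against fed mice per nucleus rest on the spread between mice. In limma that spread is moderated with the spread of other genes. In the fit with the mouse as a fixed block, p-values rest on the spread between nuclei within mice.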

Additional observations from a re-analysis of the deposited data

Results flagged for a closer look

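Of 24 groups of 4 to 6 libraries examined for the 3 genes, 2 held a library far from the rest, where about 1 in 20, or 1.2, would by chance. Socs3 was at 11.4 CPM in fed PVN-111, where the other 4 fed PVN libraries lay between 0.714 and 2.86 CPM. Its gap to the nearest library was 0.7997 of the range of the group. The change of Socs3 in PVN without that library was -1.60, against -1.98 with it. Socs3 was also at 2.197 CPM in fasted VMH-85, from 9 reads, where the other 5 fasted VMH libraries lay between 0 and 0.516 CPM, with a gap of 0.765 of the range. The reason for either value was not tested.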

How the results depend on the processing

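The rise of Lepr in ARC kept its direction in the settings tried. It no longer passed with a pseudocount of 0.1 (1.51), with no filter (1.49), with no batch covariate (1.49), or in the fit over all nuclei with no replicate block (1.48) or with the replicate block, the mouse as a random effect (1.48); the cause was not tested. Mouse numbers mark the same animal, with a consensus correlation of -0.00325 between its nuclei, and the block changed no call. Leaving out 1 library moved Lepr between 1.30 and 1.83 in ARC. The like ranges of Lepr were -0.25 to 0.53 for DMH, -0.039 to 0.57 for PVN, and -0.37 to 0.41 for VMH. Below 0 in DMH were the fits without DMH-305, DMH-311, DMH-308 or DMH-313, and above 0 in VMH those without VMH-305, VMH-86, VMH-111 or VMH-125. In PVN the sign turned without PVN-101. For Leprot they were -0.45 to 0.48 for ARC, -0.43 to 0.27 for DMH (above 0 without DMH-86) and -0.73 to 0.015 for PVN (above 0 without PVN-305), and for Leprot minus Lepr in VMH from -0.80 to 0.14, above 0 without VMH-311.

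Lepr in DMH turned to -0.027 with no batch covariate, -9.31e-05 with no replicate block and -2.75e-05 with the replicate block, and Leprot in ARC to -0.084 with library weights. The correlation over all ARC libraries, not read because Lepr differed there between fed and fasted libraries, turned from 0.15 to -0.18 without ARC-86 and ARC-311. Batch 1 alone, with 1 fed and 1 fasted library in ARC and PVN, gave 2.12 for Lepr and 2.17 for Leprot in ARC, -1.33 and -1.97 in DMH, 1.04 for Lepr in PVN, -1.56 for Lepr in VMH and -3.48 for Socs3 in PVN. Batch 3 gave 1.42 for Lepr in DMH. Socs3 in ARC was -2.33, -2.03 and -0.081 in the 3 batches. The exact permutation test, chosen after the values were seen, gave -1.98 for Socs3 in PVN with a p of 0.0278; so were the fits of Socs3 that leave out a library with no filter. A filter at 5 CPM left no value of Socs3 in the comparisons of fasted with fed mice per nucleus. Socs3, at a median of 5 reads, is limited by depth. The differences in level between nuclei of Lepr and Socs3 passed in each of 7 other settings and without each of 12 mice.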
